A study of Mus musculus with 4 samples.

Results

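The 4 genes of microfold (M) cells followed here were Spib, Sox8, Gp2 and Tnfaip2, measured by RNA-seq in thymic epithelial cells. They were taken by symbol from the deposited gene table, where each occurs once, so that 4 of 54532 genes are described here. The libraries came from C57BL/6 mice and were, in turn, mTEC of SCD1 knockout mice, mTEC of littermate controls (genotype WT), cTEC of SCD1 knockout mice and cTEC of littermate controls. Medullary cells (mTEC) bound the lectin UEA1 and lacked the surface antigen Ly51, and cortical cells (cTEC) carried Ly51 and did not bind UEA1. SCD1 is an enzyme that turns saturated into monounsaturated fatty acids. Each group has 1 library, so no difference has a replicate check, no p-value is given, and each interval covers counting error in 1 pair of libraries. How old and how many the mice were, whether animals were pooled, and which part of Scd1 was deleted in which cells, the labels do not say.

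M cells are epithelial cells of the gut that cover Peyer's patches and carry microbes from the lumen to the immune cells beneath. They arise from crypt progenitors when the ligand RANKL binds its receptor RANK, which activates noncanonical NF-kB and, further on, the transcription factors Spi-B and Sox8. A small fraction of mTEC takes up the same program, one of several in which thymic medullary cells mimic cells of other tissues and display their antigens. All values here are from bulk RNA, in which a change in the number of such mimetic cells and a change in RNA per cell cannot be told apart. mTEC, B cells and plasmacytoid dendritic cells also use Spi-B outside this program, pancreatic acinar cells make GP2, glial cells make Sox8, and macrophages and endothelium make TNFAIP2.

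Spib (ENSMUSG00000008193; mm10 chromosome 7, 44525993 to 44532071, minus strand) encodes Spi-B, an ETS factor needed for M cell maturation. Sox8 (ENSMUSG00000024176; chromosome 17, 25565892 to 25570686, minus strand) encodes an HMG-box factor that activates Gp2 in M cells. Gp2 (ENSMUSG00000030954; chromosome 7, 119442537 to 119459285, minus strand) encodes a surface receptor through which M cells take up bacteria carrying type 1 pili. Tnfaip2 (ENSMUSG00000021281; chromosome 12, 111442469 to 111455018, plus strand) encodes M-Sec, a TNF-inducible protein that promotes membrane nanotubes. All 4 are protein-coding. An antisense gene model, Gm40578, overlaps Tnfaip2 over 4614 bases and had 1 to 9 reads per library. A noncoding transcript, 2810468N07Rik, lies 124 bases from Sox8 on the other strand, and 9.49% of the 50-base windows of Sox8 occur in its GENCODE M21 transcripts. It had 76 reads in knockout mTEC and 61 in control mTEC, against 5 in knockout cTEC and 10 in control cTEC, so its counts, like those of Sox8, were larger in mTEC. No source used here gives the strand setting of the counting, so reads of these partners were not separable from those of Tnfaip2 and Sox8. Of the windows of Tnfaip2 2.01% occur in Gm40578, of those of Spib 0.329% in another gene model, and of those of Gp2 none.

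The promoters of Spib, Gp2 and Tnfaip2 are shown with the places of 4 motifs searched. Those of 3 of the 4 genes hold at least 1 of the motifs, as do 54.2% of all promoters, and nothing particular to these genes is read from it. RefSeq entries on GRCm38.p6, each with 250 bases before and 50 after the RefSeq start, matched all 4 symbols. They were searched on both strands for the PU box of Spi factors (GAGGAA), the kB consensus, a SOX core (ACAAAG) and the TATA box (TATAAA), and capitals mark the matches. The order is Spib (chr7:44532022-44532321, minus strand), Gp2 (chr7:119459223-119459522, minus strand) and Tnfaip2 (chr12:111442411-111442710, plus strand), each read on the strand of its gene.
Spib: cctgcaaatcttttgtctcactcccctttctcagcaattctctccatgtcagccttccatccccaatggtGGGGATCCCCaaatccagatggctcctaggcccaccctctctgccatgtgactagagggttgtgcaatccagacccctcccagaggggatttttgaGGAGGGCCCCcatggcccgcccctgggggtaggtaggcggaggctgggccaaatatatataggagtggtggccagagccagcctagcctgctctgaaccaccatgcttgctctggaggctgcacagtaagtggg
Gp2: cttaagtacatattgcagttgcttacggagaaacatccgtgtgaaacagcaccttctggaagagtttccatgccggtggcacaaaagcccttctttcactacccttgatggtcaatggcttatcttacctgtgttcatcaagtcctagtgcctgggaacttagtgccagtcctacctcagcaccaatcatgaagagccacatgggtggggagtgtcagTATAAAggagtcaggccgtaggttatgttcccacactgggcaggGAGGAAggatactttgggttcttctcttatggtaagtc
Tnfaip2: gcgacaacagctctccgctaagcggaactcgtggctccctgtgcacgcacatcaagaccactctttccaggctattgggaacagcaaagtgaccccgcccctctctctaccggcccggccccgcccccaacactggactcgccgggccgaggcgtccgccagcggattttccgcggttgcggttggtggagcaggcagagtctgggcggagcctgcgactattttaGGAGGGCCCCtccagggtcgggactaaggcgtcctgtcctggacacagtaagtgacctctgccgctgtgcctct

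The Spib promoter held a palindromic kB match that begins 180 bases before the start and a second match, on the reverse strand, that begins 84 bases before it. The Tnfaip2 promoter held the same 10 bases as that second site, beginning 24 bases before the RefSeq start. That start (111442661) lies inside the deposited Tnfaip2 gene, which begins at 111442469, so the match lies within the deposited gene. For Gp2 the RefSeq start is 119459272 and the deposited gene begins at 119459285. A kB match was present in 8.46% of the 32851 RefSeq promoters. The Gp2 promoter held a TATA box that begins 32 bases before the start, found in 13.6% of promoters, and a PU box at base 13 after it, found in 28.3%. None of the 4 windows held the SOX core, present in 18.7%, and the Sox8 window held none of these letters. No match overlapped a match of another motif. The promoters of Sox8 and Tnfaip2 had a GC content of 66.3% and 64.3%, that of Spib 58.0% and that of Gp2 48.3%, against a median of 52.7% over all promoters. A match describes letters only and was not tested as a binding site.

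The libraries held 15740383 to 18151725 assigned reads. Scd1 had 278 reads in knockout mTEC and 1310 in control mTEC, and 73 in knockout cTEC and 325 in control cTEC, which is lower by the size rule in both pairs. That rule asks for at least 50 reads over the 2 libraries compared, a log2 ratio of at least 1 in size, and a 95% counting interval that excludes 0. Of the population markers, 5 of 6 mTEC markers were higher and 6 of 6 cTEC markers lower in mTEC than in cTEC by this rule, in both genotypes. Over all genes tested, 19.8% were higher and 8.96% lower in mTEC in knockouts, and 19.0% and 8.53% in controls. Levels below are in CPM, reads relative to the TMM-scaled library total, and where genes are compared with each other in TPM, which also accounts for gene length.

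For each of the 4 genes both mTEC libraries had higher values than both cTEC libraries. The distance was large for the transcription factors Spib and Sox8, and smaller for Gp2 and Tnfaip2. By the size rule 4 of 4 were higher in mTEC in the knockout pair, where 19.8% of the 15962 genes tested were, and 3 of 4 in the control pair, where 19.0% of 15747 were. Tnfaip2 fell just short in the control pair, at a log2 ratio of 0.95 (0.84 to 1.06), and reached 1.04 when libraries were scaled by total reads alone. The median log2 ratio of the 4 was 2.67 in knockouts and 2.29 in controls, against −0.08 and −0.06 over all genes tested. With 4 genes and 1 library per group these medians describe the libraries only.

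**Figure D1:**
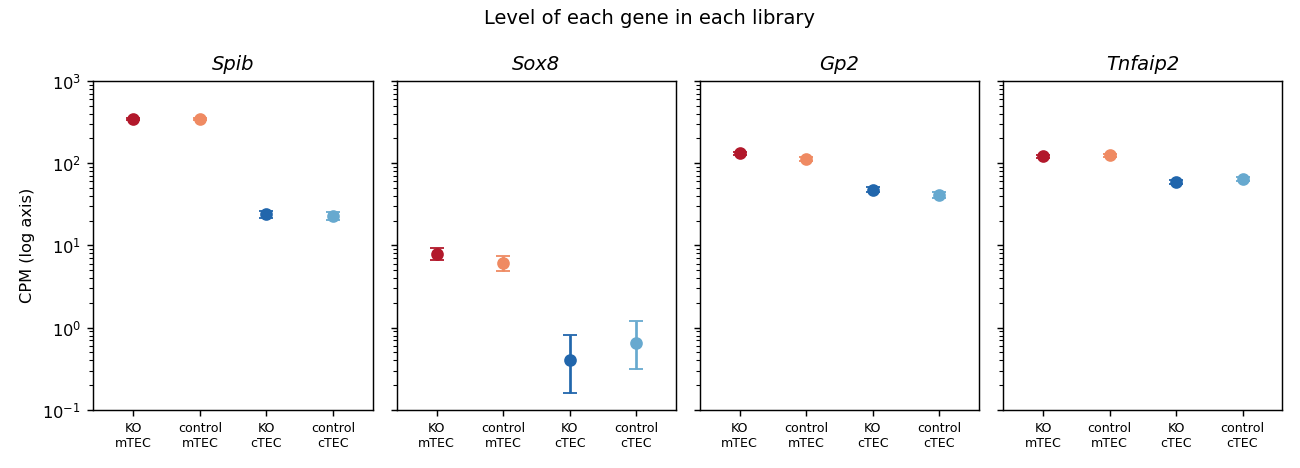
CPM of each gene in the 4 libraries on a shared log axis, with exact 95% Poisson intervals for counting error. Both mTEC libraries lie above both cTEC libraries for each gene, by the widest margin for Spib and Sox8.

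Among the transcription factors, Spib stood at 347 CPM in knockout mTEC and 348 in control mTEC, against 23.9 in knockout cTEC and 22.8 in control cTEC. The genotypes overlapped within their counting intervals in both populations, while the populations were far apart. The log2 ratio of mTEC over cTEC was 3.86 (3.72 to 4.01) in knockouts and 3.93 (3.77 to 4.09) in controls. Only 4.40% and 3.48% of genes tested differed as much in either direction. Sox8 was scarce, with 139 reads (7.91 CPM) in knockout mTEC and 103 (6.04 CPM) in control mTEC, against 7 reads (0.399 CPM) in knockout cTEC and 10 (0.654 CPM) in control cTEC. Its log2 ratio of mTEC over cTEC was 4.21 (3.23 to 5.65) in knockouts and 3.14 (2.27 to 4.31) in controls, intervals that overlap. The few cTEC reads were above the floor of 3 counts and set the width of these intervals.

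Of the effector genes, Gp2 stood at 133 CPM in knockout mTEC and 112 in control mTEC, against 47.5 in knockout cTEC and 41.3 in control cTEC. Each population had its knockout library above its control, and the mTEC libraries lay far above both cTEC libraries. The log2 ratio of mTEC over cTEC was 1.48 (1.37 to 1.60) in knockouts and 1.44 (1.31 to 1.58) in controls. Tnfaip2 stood at 122 CPM in knockout mTEC and 125 in control mTEC, against 59.0 in knockout cTEC and 64.6 in control cTEC. It had the narrowest distance of the 4 between populations, with a log2 ratio of 1.05 (0.94 to 1.15) in knockouts beside the control value given above.

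Per length, the order of the 4 genes differed between the populations. In mTEC, Spib came first with 336 TPM in the knockout library and 346 in the control, then Gp2 with 185 and 160, Tnfaip2 with 67.9 and 71.5, and Sox8 with 7.05 and 5.53. In cTEC, Gp2 came first with 67.2 TPM in the knockout library and 59.1 in the control, then Tnfaip2 with 33.4 and 37.1, Spib with 23.6 and 22.8, and Sox8 with 0.362 and 0.600. In knockout mTEC 98.5% of protein-coding genes had a lower TPM than Spib, and in knockout cTEC 74.0%. Of the 26 genes that the deposited table assigns to the ETS family, Spib had the highest TPM in both mTEC libraries and ranked 11 in both cTEC libraries, where Ets2 was first. Of 20 SOX genes, Sox8 ranked 5 in knockout mTEC, 7 in control mTEC, 13 in knockout cTEC and 12 in control cTEC, and Sox9 was first in each.

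The cTEC libraries retained very different shares of the mTEC level. Spib in cTEC was at 6.89% of its mTEC level in knockouts and 6.57% in controls, and Sox8 at 5.05% and 10.8%. Gp2 was at 35.8% and 36.8%, and Tnfaip2 at 48.4% and 51.8%. Beside them, Aire, the medullary regulator of tissue antigens, was at 2.67% and 2.97%, the costimulatory gene Cd80 at 10.1% and 11.7%, and the medullary transcription factor gene Fezf2 at 11.3% and 15.2%. The keratin gene Krt14 was at 37.3% and 39.6%, and Krt5 at 66.1% and 72.1%. Spib and Sox8 thus lay in the range of Aire, Cd80 and Fezf2, and Gp2 and Tnfaip2 above it. What share of the cTEC reads came from mTEC in the sort was not tested.

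Relatives of the 4 genes showed how far the pattern extended within each family. Spi1, which encodes PU.1, and Spic, both ETS genes of myeloid and lymphoid cells, were higher in mTEC by the size rule in both genotypes, but Spib had 47.0 times the TPM of Spi1 in knockout mTEC and 33.4 times in control mTEC. Sox9, the abundant relative of Sox8, had log2 ratios of 0.46 (0.39 to 0.53) in knockouts and 0.31 (0.24 to 0.38) in controls. Sox10, a neural crest and glial factor, was higher in mTEC in both genotypes, with 92 reads in knockout mTEC and 106 in control mTEC, against 1 in knockout cTEC and 14 in control cTEC.

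Umod, which encodes uromodulin and lies 3425 bases from Gp2, was also higher in mTEC in both genotypes, with log2 ratios of 2.47 (1.85 to 3.20) in knockouts and 3.31 (2.45 to 4.48) in controls. Of the Exoc3 family that contains Tnfaip2, the abundant Exoc3l4 had ratios of 0.14 in both genotypes, Exoc3 of −0.32 and −0.58, and Exoc3l passed only in knockouts, with 50 reads in mTEC and 22 in cTEC. Exoc3l4 was at 43.9 TPM in knockout mTEC and 41.8 in control mTEC, and at 40.6 in knockout cTEC and 38.0 in control cTEC, a range far narrower than that of Tnfaip2. Of the 10 relatives, 9 had enough reads, of which 5 were higher by the size rule in knockouts and 4 in controls, and none was lower, beside the same shares over all genes tested of 19.8% and 19.0% higher and 8.96% and 8.53% lower.

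**Figure D2:**
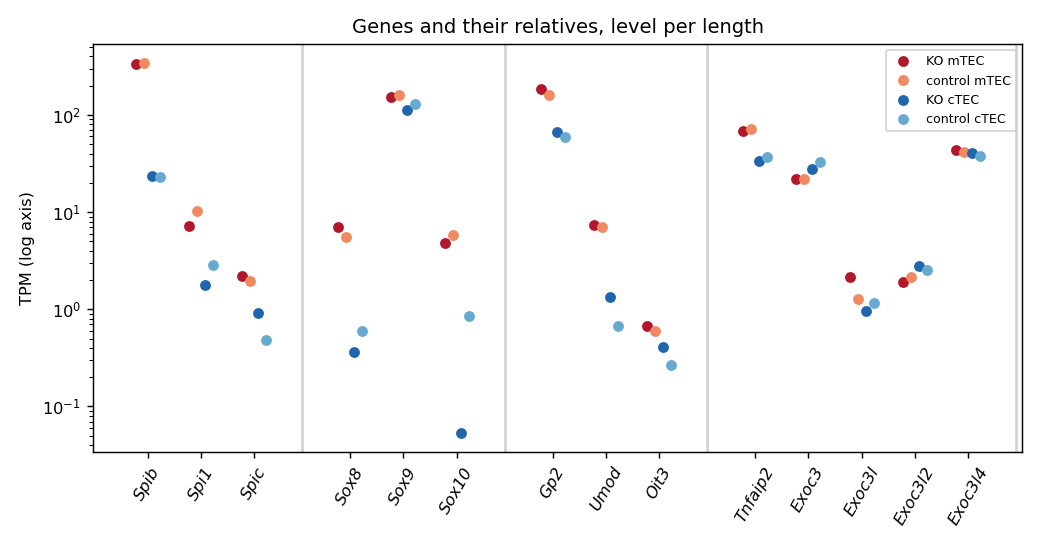
TPM of each of the 4 genes and its relatives in the 4 libraries, on a log axis, with 1 point per library. Spib lies above Spi1 and Spic in every library, Sox9 lies above Sox8 in every library, and Tnfaip2 and Exoc3l4 lie close together in cTEC.

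Further genes reported in M cells were mostly higher in mTEC. Of 13, 8 passed the size rule upward in both genotypes, where 19.8% of all genes tested in knockouts and 19.0% in controls did. None passed downward, where 8.96% of all genes tested in knockouts and 8.53% in controls did. The median log2 ratio of the 11 with enough reads was 2.61 in knockouts and 2.28 in controls. The chemokine genes Ccl20, Ccl9 and Ccl6 had ratios of 3.25, 3.39 and 2.97 in knockouts and 3.07, 3.69 and 3.85 in controls. Tnfrsf11b, which encodes the RANKL decoy osteoprotegerin, had 3.92 (3.64 to 4.23) in knockouts and 3.70 (3.43 to 4.01) in controls. The bacterial peptidoglycan receptor gene Pglyrp1 had 2.77 and 2.86, the secretory chaperone gene Scg5 2.61 and 2.28, the nuclear receptor gene Esrrg 1.68 and 1.88, and Aif1 1.07 and 1.23.

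Of the further M cell genes, the abundant Marcksl1, Prnp and Anxa5 did not pass. Marcksl1 had ratios of 0.83 and 0.60 in knockouts and controls, the prion protein gene Prnp 0.35 and 0.33, and the annexin gene Anxa5 −0.01 and −0.05. S100a4 and C5ar1, named after their values were seen, had too few reads for the rule. Their ratios of mTEC over cTEC were 2.53 and 2.36 for S100a4 and 2.74 and 1.99 for C5ar1, in knockouts and controls. Between genotypes, S100a4 had 14 reads in knockout mTEC and 31 in control mTEC. That is a log2 ratio of knockout over control of −1.16 (−2.22 to −0.24).

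Of the RANK and noncanonical NF-kB genes, a minority was higher in mTEC. Tnfrsf11a, the RANK gene, had a log2 ratio of mTEC over cTEC of 3.30 (3.11 to 3.51) in knockouts and 2.82 (2.64 to 3.01) in controls, and Cd40, a related receptor, 2.24 and 2.26. The noncanonical NF-kB subunit genes Nfkb2 and Relb had 1.33 and 1.11 in knockouts and 1.32 and 1.07 in controls. These 4 of 13 genes passed in both genotypes and none passed downward, where 19.8% and 19.0% of all genes tested were higher and 8.96% and 8.53% lower in knockouts and controls. The list median was 0.57 in knockouts and 0.55 in controls, with Birc3 at 0.91 and 0.89 and Birc2, which like Birc3 encodes a ubiquitin ligase of the pathway, at 0.57 and 0.54. Ltbr, the lymphotoxin beta receptor gene, named after its values were seen, lay the other way at −0.95 and −0.97.

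**Figure D3:**
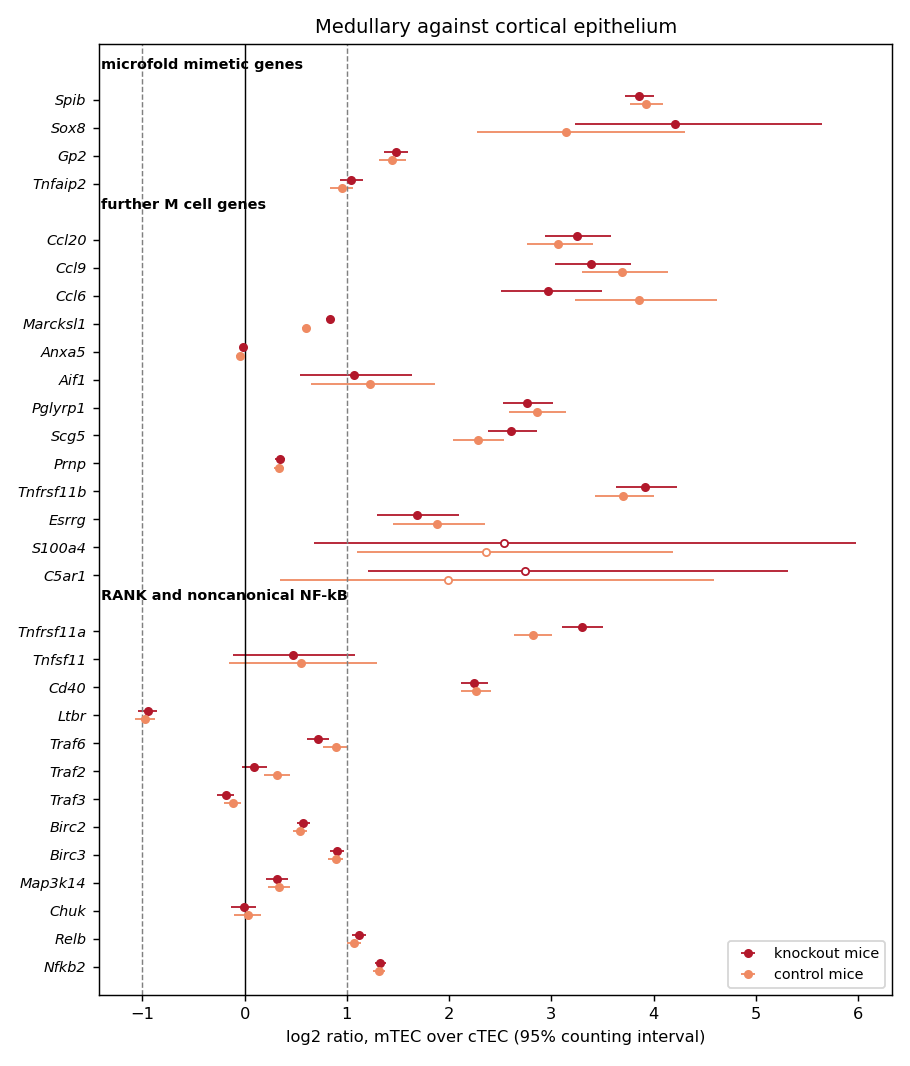
Log2 ratio of mTEC over cTEC with 95% counting intervals for the 4 genes, further M cell genes and the RANK pathway, in knockout and control mice. Open points had under 50 reads over the pair, and dashed lines mark the minimum size of 1. Spib and Sox8 lie with Ccl20, Ccl9, Tnfrsf11b and Tnfrsf11a, while Tnfaip2 lies near Relb and Nfkb2.

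Markers of other cells that make these proteins moved with some of the ratios. The counts below, for these and for tuft cell genes, stand beside the shares over all genes tested. Those were 19.8% higher in mTEC and 8.96% lower in knockouts, and 19.0% and 8.53% in controls. Of 4 B cell genes, 3 (Cd79a, Cd79b and Pax5) were higher in mTEC in both genotypes, and the list summed to 22.1 CPM in knockout mTEC and 20.7 in control mTEC, against 4.39 in knockout cTEC and 4.38 in control cTEC. Cd79b, the B cell gene with the most TPM in mTEC, was at 12.2 and 14.9 TPM there, against 336 and 346 for Spib. Of 4 plasmacytoid dendritic cell genes, Siglech, a defining one named after its values were seen, had 8 reads in knockout mTEC and 23 in control mTEC, and 14 and 15 in cTEC. The 4 genes summed to 59.9 and 55.0 CPM in mTEC and 51.2 and 48.3 in cTEC. Of the 2 with enough reads, Klk1 was higher in mTEC in knockouts, with 607 reads in mTEC and 214 in cTEC there. In controls it had 537 and 277 (log2 ratio 0.80, 0.59 to 1.01). The other, Ccr9, named after its values were seen, lay the other way. Its log2 ratio of mTEC over cTEC was −0.70 (−0.88 to −0.52) in knockouts and −0.52 (−0.73 to −0.31) in controls. Cox6a2, below the minimum and named after its values were seen, had 25 reads in knockout mTEC and 33 in control mTEC, against 2 in knockout cTEC and 3 in control cTEC.

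Of 6 exocrine pancreas genes, Ctrb1 and Cel were higher in mTEC in both genotypes. The list summed to 43.8 CPM in knockout mTEC and 37.5 in control mTEC, against 2.17 in knockout cTEC and 2.94 in control cTEC, and Pnlip and Cpa1 were at 0 reads in both cTEC libraries. In cTEC this sum was thus at 4.95% of its mTEC level in knockouts and 7.85% in controls, where Gp2 was at 35.8% and 36.8%. Of 3 glial genes, Sox10 was higher in mTEC in both genotypes, and the list summed to 12.4 CPM in knockout mTEC and 14.0 in control mTEC, against 9.07 in knockout cTEC and 9.36 in control cTEC.

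Of 6 macrophage genes, 4 (Lyz2, Csf1r, C1qb and Adgre1) were higher in mTEC in knockouts, and these and C1qa in controls, while Cd68 had −0.65 (−0.87 to −0.44) in knockouts and −0.75 (−0.99 to −0.52) in controls. The list had sums of 347 CPM in knockout mTEC and 307 in control mTEC, against 107 in knockout cTEC and 89.4 in control cTEC, largely through Lyz2. Of 5 endothelial genes, Tek was higher in mTEC in knockouts and Cldn5 lower in controls, and the sums were 23.8 and 14.6 CPM in mTEC and 25.1 and 15.9 in cTEC, knockout before control. The part of these cells in the ratios of the 4 genes was not tested. Tuft cell genes, marks of another mimetic cell, had a median ratio of 0.99 in knockouts and 0.90 in controls, beside 2.67 and 2.29 for the 4 M cell genes. Of the 5 tuft genes, Dclk1 was higher in mTEC in both genotypes and Avil in knockouts.

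None of the 4 genes passed the size rule between genotypes; in cTEC 3 of them had enough reads for it. In mTEC 0.935% of 16466 genes tested passed in either direction, and in cTEC 1.2% of 14445. Spib had nearly equal levels in both genotypes of mTEC, with 6099 reads in the knockout and 5927 in the control, a log2 ratio of −0.0027 (−0.05 to 0.05) whose sign depends on the scaling. In cTEC it had 419 and 349 reads (0.07, −0.14 to 0.27). Tnfaip2 had 2139 reads in knockout mTEC and 2128 in control mTEC (−0.04, −0.12 to 0.05), and 1034 in knockout cTEC and 988 in control cTEC (−0.13, −0.26 to −0.0049). For Spib and Tnfaip2 in mTEC, a difference of 1.5-fold lies outside the counting interval, although the spread between animals is not known.

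Gp2 and Sox8 had the larger ratios in mTEC. Gp2 had 2332 reads in the knockout library and 1914 in the control (0.24, 0.15 to 0.33), and in cTEC 833 and 631 (0.20, 0.05 to 0.35). Both intervals exclude 0, yet 23.5% of genes tested in mTEC and 32.2% in cTEC had ratios at least as large in either direction. Sox8 had 139 and 103 reads in mTEC (0.39, 0.01 to 0.77), a size that 11.1% of genes tested reached, and too few reads for the rule in cTEC, with 7 in the knockout and 10 in the control (−0.68, −2.34 to 0.83). The difference of the genotype ratio between mTEC and cTEC was 0.04 (−0.14 to 0.21) for Gp2, 0.10 (−0.06 to 0.25) for Tnfaip2, −0.07 (−0.28 to 0.15) for Spib and 1.07 (−0.50 to 2.78) for Sox8. Each of these counting intervals includes 0.

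**Figure D4:**
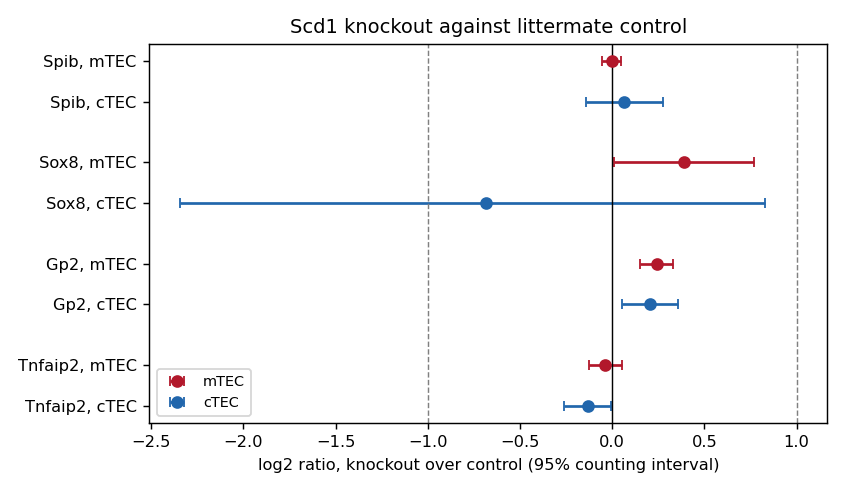
Log2 ratio of knockout over control for each gene in mTEC and in cTEC, with 95% counting intervals; dashed lines mark the minimum size of 1. All points lie between the dashed lines, and the widest interval is that of Sox8 in cTEC, with 7 and 10 reads.

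The further M cell and RANK pathway genes were below the size rule as well. Of the 13 further M cell genes, 11 had enough reads in each population and none of these passed between genotypes, and their median log2 ratio was 0.02 in mTEC and 0.04 in cTEC, against 0.0064 and 0.010 over all genes tested. In mTEC, Anxa5 had 0.03, Marcksl1 0.05, Prnp 0.06 and Tnfrsf11b −0.04. In cTEC, Anxa5 had −0.0036, Marcksl1 −0.18, Prnp 0.04 and Tnfrsf11b −0.25 (−0.66 to 0.15). None of the 13 RANK pathway genes passed either, with medians of 0.02 in both populations. Over all genes tested, 0.935% passed in mTEC and 1.2% in cTEC, so for lists this short a count of none is near these shares. In mTEC, Nfkb2 had −0.0036, Birc2 −0.0089, Relb 0.02 and Birc3 −0.0084. Tnfrsf11a, named here after its values were seen, had 0.05 in mTEC and −0.44 (−0.70 to −0.18) in cTEC.

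Markers beside Gp2 and Sox8 in the mTEC pair were mixed. The summed exocrine pancreas genes were at 43.8 CPM in the knockout library and 37.5 in the control, with Sycn, a zymogen granule gene, past the size rule at 42 and 10 reads. Of the other exocrine genes, Ctrb1 had 0.26 (0.07 to 0.45), Pnlip 0.12, Cel −0.01, Cpa1 −0.22 and Cela1 −0.27, and the list median was 0.12, or 0.05 with no minimum of reads. The glial genes summed to 12.4 CPM in the knockout library and 14.0 in the control. Il25, a tuft cell cytokine gene, passed with 53 and 19 reads. Of the other tuft genes, Avil had 0.38 (0.20 to 0.55), Trpm5 0.37 (0.17 to 0.57), Dclk1 0.03 and Pou2f3 −0.02. The median of the tuft list was 0.37. Endothelial Cldn5 passed in the mTEC pair, with 53 and 10 reads, and Cdh5 in the cTEC pair, with 53 and 17. Tek, below the minimum in the cTEC pair and named after its values were seen, had 15 and 29 reads there (−1.13, −2.15 to −0.20). The endothelial list median was 0.69 in mTEC and 0.94 in cTEC, or 0.63 and 0.21 with no minimum of reads. The macrophage list had medians of 0.20 in mTEC and 0.25 in cTEC. Of its genes with enough reads, 5 of 6 were above 0 in mTEC and 5 of 5 in cTEC. The cTEC markers had medians of 0.27 in mTEC and 0.32 in cTEC, with 6 of 6 above 0 in each. The mTEC markers had a median of −0.02 in mTEC, with 2 above 0 and 4 below. In cTEC their median was −0.24, with 6 of 6 below 0. Over all genes tested the median was 0.0064 in mTEC and 0.010 in cTEC. The part of these shifts in the ratios of Gp2, Sox8 and Tnfaip2 was not tested.

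For each gene the 3 most similar patterns were sought among 12782 protein-coding genes with at least 200 reads, by the Euclidean distance of log2 CPM centred on each gene's mean over the 4 libraries. For Spib these were the NMDA receptor subunit gene Grin2c (distance 0.07), the immunoglobulin superfamily gene Igsf9b (0.07) and the synaptotagmin gene Syt7 (0.09). For Sox8 they were Igfbp6, an insulin-like growth factor binding protein gene (0.09), the myosin heavy chain gene Myh8 (0.17) and the fucosyltransferase gene Sec1 (0.20). For Gp2 they were the muscle ubiquitin ligase gene Trim63 (0.06), Sftpd, which encodes surfactant protein D (0.08), and the cell cycle inhibitor gene Cdkn1c (0.09). For Tnfaip2 they were the chromatin remodelling gene Actl6a (0.03), Tex30 (0.04) and St14, which encodes the protease matriptase (0.04). None of the 4 genes was among the nearest 3 of another. Over 4 libraries such distances only describe which genes had the same levels relative to their own mean.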

How the data were processed

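RNA of 4 libraries, 1 per group, was counted per gene by the authors. The authors deposited raw read counts, and per the submitters' processing notes CASAVA, HISAT2 2.0.5, featureCounts 1.5.0-p3 and the build mm10 were used; no source used here gives the annotation release, the strand setting or the handling of reads with several positions. The deposited gene length in bases (other unit) equals the union of exons in GENCODE M21 for 98.0% of shared genes and all 4 members, and gave TPM.

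Counts were scaled with TMM (edgeR 4.0.16, R 4.3.3); other steps used Python 3.11.15, scipy 1.17.1 and pandas 2.3.3. Log2 ratios carry a prior of 0.5 reads and an exact conditional binomial 95% interval, levels an exact Poisson interval, and differences of ratios an exact conditional odds ratio interval. Since PCR copies are not separate molecules, these intervals, and the floor of 3 counts (0.171 to 0.196 CPM), describe counting error alone. With 1 library per group no test of a condition was made. The calculation was tested on simulated data. DESeq2 1.42.0 size factors, total counts, other read minimums, a 1.5-fold minimum and a prior of 2 were alternatives.

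Members and lists were chosen with earlier results of these data known. Named were all members, list genes past the size rule, up to 4 list genes with the most reads, and 3 pattern neighbours per member (predicted models left out); 2 list genes are not reported here.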

Additional observations from a re-analysis of the deposited data

Results flagged for a closer look

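The genotype ratio of Sox8 pointed in opposite directions in the 2 populations under each scaling tried. Its log2 ratio of knockout over control was 0.39 in mTEC, from 139 and 103 reads, and −0.68 in cTEC, from 7 and 10 reads, a difference of 1.07 (−0.50 to 2.78 by counting error). The difference between populations was not tested, since each group has 1 library.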

How the results depend on the processing

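With DESeq2 size factors and with total counts only, 24 of 24 counts, ratios and differences of the 4 genes kept their direction where it was called and stayed within the main counting interval, or, for counts, within 1.5 times the main count; with a prior of 2 reads 20 of 20 did. With at least 200 reads Sox8 was no longer assessed between populations, which left 3 genes past the rule in knockouts and 2 in controls. The call for Tnfaip2 between populations in controls changed with total counts, its ratio ranging over 0.95 to 1.04, and with a 1.5-fold minimum, so that 4 genes passed there. The mTEC genotype ratio of Spib ranged over −0.0090 to 0.0031. Without a minimum of reads, the median genotype ratio of the glial genes in cTEC was −0.20, against 0.10 from the 1 gene with 50 reads. RPKM in place of TPM changes every level by 1 constant per library and leaves the order of genes as it was. The exocrine list had no gene with 50 reads in the cTEC pair. No paired analysis was possible because the groups compared share fewer than 2 replicate numbers. Depth limits Sox8 in cTEC, where 7 and 10 reads leave a log2 interval of −2.34 to 0.83.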
